A study of Mus musculus with 21 samples.

Results

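The Hoxa cluster is a run of homeobox genes on mouse chromosome 6, and 8 of its genes are described here: Hoxa2, Hoxa3, Hoxa4, Hoxa5, Hoxa7, Hoxa9, Hoxa10 and Hoxa11. They are the 8 Hoxa genes named for this description among 18194 genes measured, and all 15 probe sets annotated to them alone were taken, of 45101 on the array. Each gene is represented by its probe set of highest mean over all 21 arrays, and its other probe sets are given beside it. Of the 8 genes, 5 had several probe sets and 3 had 1. Hoxa13 was also measured, by 1 probe set, and is no member.

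The study measured RNA from sorted bone marrow cells of C57/BL6 mice that carried Mx-Cre and had been injected with PIPC, an inducer of interferon. LSK-Dot holds 6 arrays and GMP-Dot 4 arrays of Dot1l fl/fl x Mx-Cre cells, in which the injection deleted Dot1l and which are labelled Dot1l -/-. LSK-Control holds 6 arrays and GMP-Control 5 arrays of cells with wild type Dot1 alleles and the same Cre and injection. LSK cells lack lineage markers and carry Sca-1 and Kit, a gate that holds stem cells and early progenitors, and GMP are granulocyte macrophage progenitors. Mx-Cre acts in every cell that responds to interferon, so the deletion is not limited to the sorted cells. The labels state neither age nor which arrays came from different animals, and p-values here measure only how far these arrays spread, which may be technical.

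Hox genes encode transcription factors that bind DNA through a homeodomain, often together with cofactors of the PBX and MEIS families. In the embryo they pattern the body axis, in an order that follows their order along the cluster. In blood, the Hoxa genes are most active in stem cells and early progenitors and are shut off as cells mature. Their transcription is maintained by the MLL protein (gene Kmt2a), and in leukaemias with MLL fusions the fusion recruits DOT1L, a methyltransferase of histone H3 found over transcribed genes, to Hoxa9 and its neighbours. The study asks what loss of DOT1L does to normal progenitors.

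RefSeq promoter windows (build GRCm38.p6) were matched for 7 of the 8 genes, and Hoxa4 is named only. The 250 bases before the annotated start are shown for Hoxa9 and Hoxa3, whose differences were largest in LSK, and for Hoxa10, the member that passed the test between the control cell types. All lie on the minus strand and are written 5′ to 3′, with matches to the searched motifs in capitals.
Hoxa9, chr6:52227371-52227620: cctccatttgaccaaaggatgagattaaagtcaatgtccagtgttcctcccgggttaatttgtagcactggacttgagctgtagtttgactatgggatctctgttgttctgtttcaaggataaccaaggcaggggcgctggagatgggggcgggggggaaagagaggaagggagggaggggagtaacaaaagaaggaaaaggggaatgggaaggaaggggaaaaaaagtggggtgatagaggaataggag
Hoxa3, chr6:52213068-52213317: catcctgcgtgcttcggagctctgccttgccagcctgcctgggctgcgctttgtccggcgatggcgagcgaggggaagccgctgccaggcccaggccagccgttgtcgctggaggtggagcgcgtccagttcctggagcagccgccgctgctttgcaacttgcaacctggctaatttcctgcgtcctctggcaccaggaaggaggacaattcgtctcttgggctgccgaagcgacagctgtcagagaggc
Hoxa10, the downstream of its 2 windows, chr6:52234940-52235189: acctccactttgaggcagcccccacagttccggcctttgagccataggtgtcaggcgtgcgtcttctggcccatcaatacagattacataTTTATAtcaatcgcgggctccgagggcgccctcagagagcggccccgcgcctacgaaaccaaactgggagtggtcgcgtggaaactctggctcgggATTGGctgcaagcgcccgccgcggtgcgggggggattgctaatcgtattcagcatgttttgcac
The motifs, searched on both strands, were TGATNNAT (a site bound by PBX and HOX proteins together), CCAAT (the CCAAT box) and TATAAA (the TATA box). Neither the Hoxa9 nor the Hoxa3 window held any of them. The Hoxa10 window held 1 CCAAT and 1 TATAAA match, which do not overlap, and the other Hoxa10 window held none. Among all 32841 windows of this length, 33.9% held CCAAT, 12.4% TATAAA and 7.69% TGATNNAT. The windows also differed in CpG sites, with 3 in Hoxa9, 18 in Hoxa3 and 20 in this window of Hoxa10, against a median of 6 over all windows. The Hoxa3 window lies between those of Hoxa5 and Hoxa7, although Hoxa3 comes before Hoxa4 and Hoxa5 in the cluster. It thus belongs to a far upstream start, and no start nearer to Hoxa3 had a window here. The arrays do not say from which start a transcript came.

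All values below are log2 of the deposited intensities, and a difference of 1 is a 2-fold change. Dot1l itself, the deleted gene, had values of 5.95 to 7.01 in LSK-Dot against 6.08 to 6.93 in LSK-Control at its brighter probe set, and of 5.62 to 6.60 in GMP-Dot against 6.55 to 6.95 in GMP-Control. Its differences were -0.10 ± 0.20 in LSK and -0.52 ± 0.24 in GMP (SE, limma adjusted p = 0.985 and 0.340). The dimmer Dot1l probe set ran from 5.12 to 7.15 in LSK-Dot against 5.29 to 6.65 in LSK-Control. In GMP it ran from 4.65 to 7.22 in GMP-Dot against 5.14 to 6.96 in GMP-Control. At this probe set K1359 was the highest array of LSK-Dot and of GMP-Dot, above every control array of its cell type. At the brighter probe set K1359 was instead the lowest LSK-Dot array, at 5.95, below every LSK-Control array. In GMP-Dot it had 6.36 there, below every GMP-Control array, so the Dot1l probe sets disagreed on K1359. Whether the Dot1l probes lie in the deleted part is not given, so these values do not check the labels. By their list averages, the sort markers matched the labels. The 8 LSK markers measured (among them Flt3 and Hlf) averaged 5.10 to 5.92 in GMP-Control arrays and 8.61 to 9.01 in LSK-Control arrays. Of these, 7 averaged lower in GMP-Control and 1 higher, where 34.2% of all genes averaged lower. The 8 GMP markers measured (among them Mpo and Elane) were all higher in GMP-Control. They averaged 11.55 to 12.18 in GMP-Control and 8.35 to 9.03 in LSK-Control. A pair of LSK-Dot arrays stood apart. K1272 had a mean Spearman correlation of 0.684 with its group, where every other array had at least 0.811 with its own, and LSK markers at 5.67. K1359 had the highest LSK markers of its group, at 8.79, inside the LSK-Control range, and the lowest GMP markers, at 7.63. GMP-Dot K1190 and K1272 were close to each other, with a median absolute difference of 0.198 over all probe sets, against at least 0.377 for other pairs of their group, and both were kept.

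In LSK cells, the members with the largest differences were Hoxa9, Hoxa3 and Hoxa10, which averaged lower in LSK-Dot arrays, by 7.43, 7.18 and 2.11 times. Hoxa4 and Hoxa5 also averaged lower, and Hoxa2, Hoxa7 and Hoxa11 differed by less than 0.2 on the log2 scale. None of the 8 passed limma's adjusted p of 0.05 over all genes, where 0% of the 18194 genes passed. At an unadjusted p under 0.05, 3 of 8 members were lower and 0 higher, against 2.48% of all genes lower and 3.13% higher. A difference under 0 was found for 5 of 8, against 41.6% of all genes, and groups without overlap for 0 of 8, against 0.33%. The members' median difference was -0.65, beside 0.06 for all genes.

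Hoxa9 drives self-renewal of progenitors and is the Hoxa gene most often raised in acute myeloid leukaemia. In the 6 LSK-Dot arrays its lowest, median and highest values were 3.49, 7.26 and 10.02, against 9.37, 10.15 and 10.48 in the 6 LSK-Control arrays. The groups overlapped through 1 array, K1359 at 10.02, and the other 5 LSK-Dot arrays, at 3.49 to 8.54, lay below every LSK-Control array. The difference was -2.89 ± 0.71 (SE), with an unadjusted p of 0.000580, which ranked 43 among 18194 genes, and a limma adjusted p of 0.242. Without K1359 it was -3.46 with an adjusted p of 0.0280, and without K1272 it was -2.16 with an adjusted p of 0.191. Over all 32 alternatives the adjusted p of this difference ran from 0.00168 to 0.582.

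Hoxa3 is best known for its part in forming the thymus, parathyroids and neck. Its values in LSK-Dot were 2.58 at the lowest, 8.12 at the median and 10.43 at the highest, against 9.03, 9.95 and 10.99 in LSK-Control. Again 5 of 6 LSK-Dot arrays lay below the LSK-Control range and K1359 lay inside it. Hoxa3 differed by -2.84 ± 1.04 (SE, limma adjusted p = 0.662), and its spread in LSK-Dot (SD 2.92) was wider than in LSK-Control (SD 0.63). Leaving out 1 array moved the difference between -3.51, without K1359, and -1.94, without K1190. The lowest arrays were K1190 at 2.58 and K1272 at 4.64, with the remaining 4 arrays at 7.99 or above.

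Hoxa10, next to Hoxa9 on the far side of the miRNA gene Mir196b, promotes proliferation of stem cells and myeloid progenitors. It had 3.49, 4.54 and 6.03 as lowest, median and highest values in LSK-Dot, against 4.43, 5.66 and 6.54 in LSK-Control. Here 3 LSK-Dot arrays lay below the LSK-Control range and 3 inside it, so that the groups overlapped more than for Hoxa9. Its difference was -1.08 ± 0.46 (SE, limma adjusted p = 0.814).

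Among the other members, Hoxa4, an axial patterning gene, lay at 3.18 to 3.92 in LSK-Dot against 3.69 to 5.57 in LSK-Control, and differed by -0.92 ± 0.64 (SE). All but 1 of its LSK-Dot arrays lay below the LSK-Control range, but all 6 lay below their array's median, where a probe set carries little signal. Hoxa5, known for its role in the lung and for restraining erythroid fate in human progenitors, had a median of 4.98 in LSK-Dot against 5.73 in LSK-Control, and differed by -0.38 ± 0.47. Its highest LSK-Dot array was again K1359, at 7.50. Hoxa7, another target of MLL fusions, had medians of 6.71 in LSK-Dot and 6.75 in LSK-Control and differed by 0.18 ± 0.31. That positive sign came from K1272 at 8.66, without which Hoxa7 differed by -0.16. Hoxa2, a hindbrain patterning gene, and Hoxa11, a limb and uterus patterning gene, lay below their array's median on all 21 arrays, with differences of 0.15 ± 0.24 and 0.03 ± 0.18 (SE). The limma adjusted p of these 5 genes was at least 0.985.

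**Figure D1:**
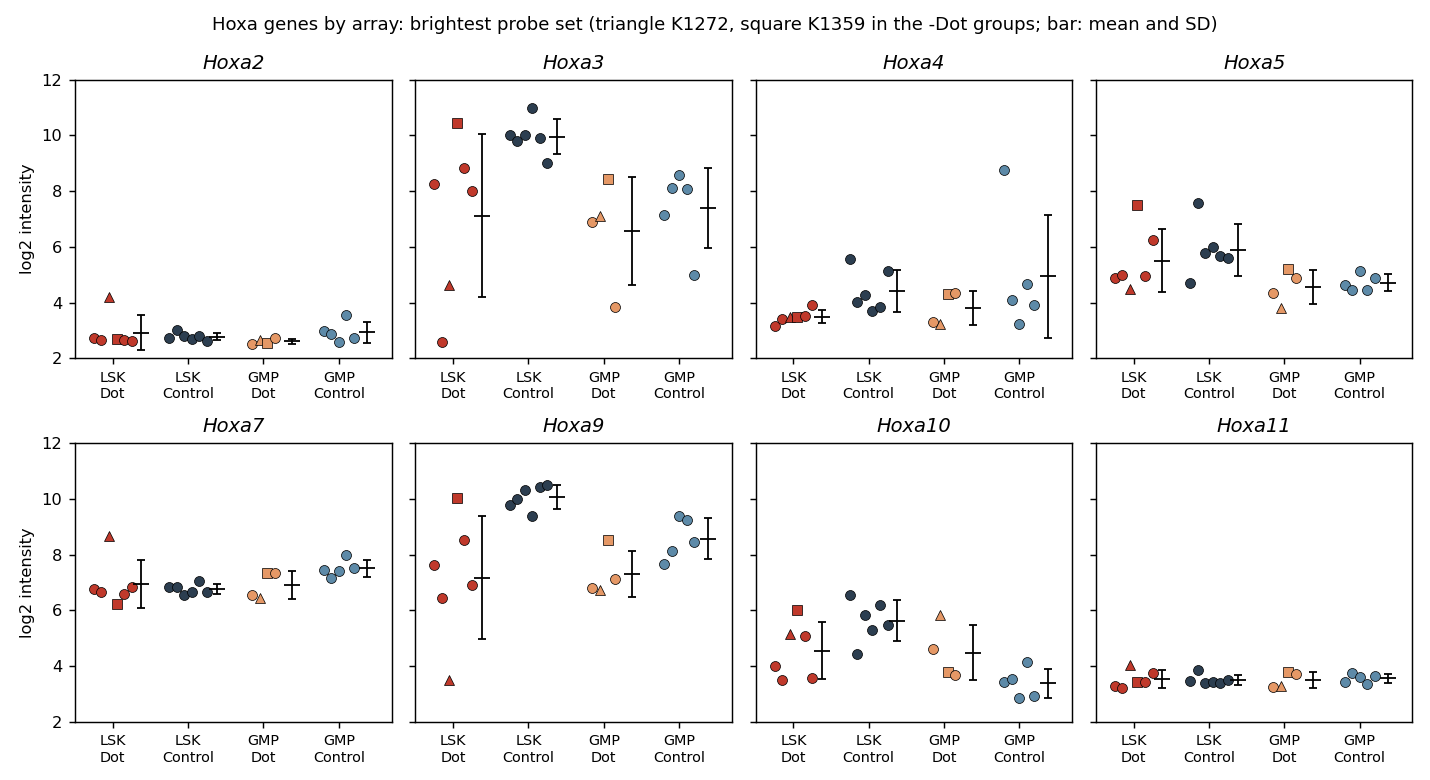
Log2 intensity (vertical axis) of the 8 genes' brightest probe sets on every array of LSK-Dot, LSK-Control, GMP-Dot and GMP-Control, with 1 point per array and the mean and SD beside each group. Hoxa9 and Hoxa3 lie lower on 5 of 6 LSK-Dot arrays than on any LSK-Control array, and the square, K1359, lies among the controls at 10.02 and 10.43.

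Read by array, the LSK-Dot values did not shift as a block. K1091 and K1190 had 5 of 8 members below the LSK-Control range, K1272 and K1422 had 4, K1421 had 3 and K1359 had 2. Hoxa9 was the member furthest below its LSK-Control mean on K1091, K1272, K1421 and K1422, by 1.53 to 6.57 log2 units, and Hoxa3 was on K1190. On K1359 the furthest was Hoxa4, at -0.94, and the members averaged 0.10 above their LSK-Control means. K1272 had 3 members above the control range, Hoxa2, Hoxa7 and Hoxa11, all with their group's highest value there.
Markers of other cells moved with these groups. All 10 late neutrophil markers measured (among them Ltf, S100a8 and Ngp) averaged lower in LSK-Dot, with array means of 5.49 to 7.31 against 7.09 to 11.28 in LSK-Control, and all 8 LSK markers averaged lower, at 5.67 to 8.79 in LSK-Dot against 8.61 to 9.01 in LSK-Control. Of the 8 GMP markers, 7 averaged higher, at 7.63 to 10.25 in LSK-Dot against 8.35 to 9.03 in LSK-Control. Of all genes, 41.6% averaged lower in LSK-Dot. On K1359, where Hoxa9 and Hoxa3 lay at LSK-Control levels, the LSK markers did too. The part of cell makeup in the Hoxa differences was not tested, and in bulk RNA fewer cells that express a gene and less RNA per cell cannot be told apart.

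**Figure D2:**
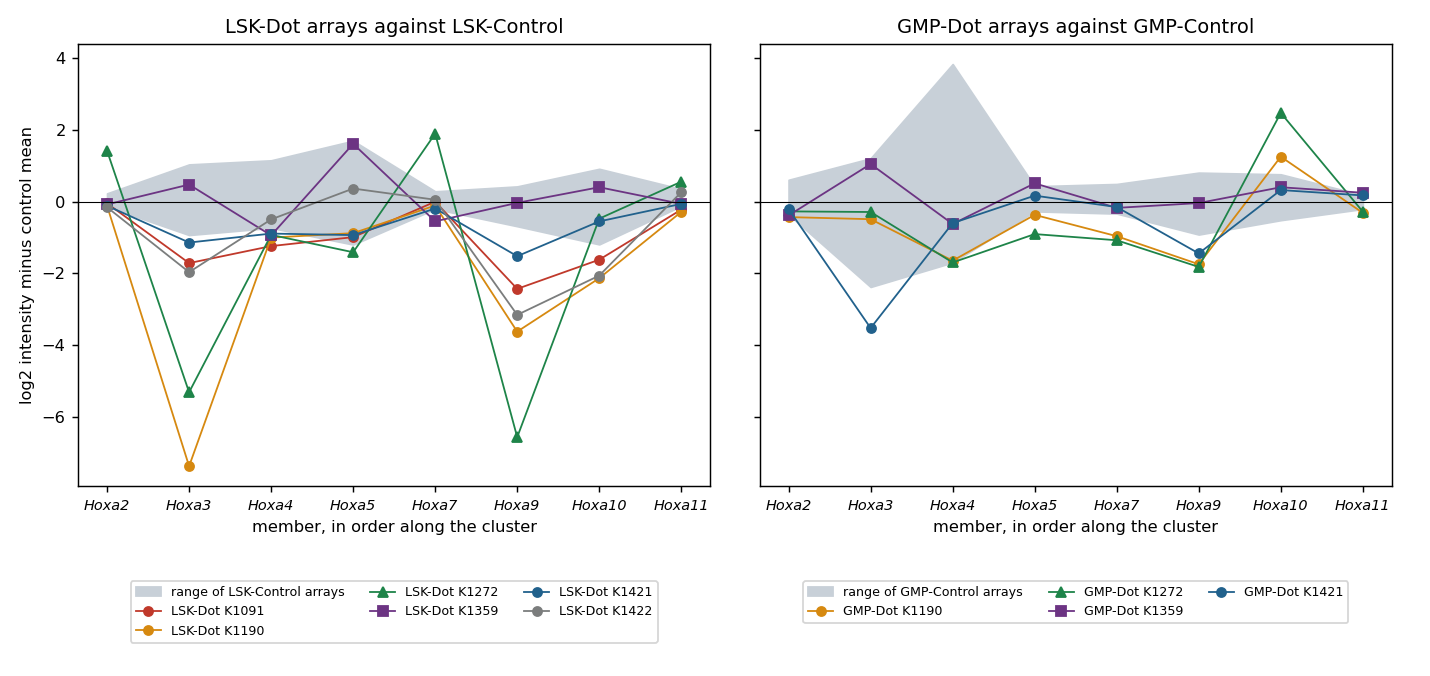
Each line is 1 array of LSK-Dot (left) or GMP-Dot (right), drawn as log2 intensity minus the mean of the matching control group (vertical axis) for the 8 genes in cluster order (horizontal axis), over the range of the control arrays in grey. The lines dip at Hoxa3 and Hoxa9 in LSK-Dot except for K1359, and GMP-Dot K1190 and K1272 peak at Hoxa10.

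In GMP, 7 of the 8 members averaged lower in GMP-Dot and Hoxa10 averaged higher, and no member passed the test. All genes leaned the same way here, since 65.7% had a difference under 0. The members' median was -0.46, beside -0.20 for all genes. Limma's adjusted p was under 0.05 for 0 of 8 members, against 0.143% of all genes, and an unadjusted p under 0.05 was also reached by 0 of 8, against 13.9%. Groups without overlap were found for 0 of 8, against 4.78% of all genes.

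Hoxa9 had 6.82, 6.74, 8.52 and 7.12 in GMP-Dot (K1190, K1272, K1359 and K1421), against 8.14, 9.37, 9.24, 8.44 and 7.65 in GMP-Control (K1601 to K1604 and K1581). It lay below the GMP-Control range on 3 of 4 GMP-Dot arrays, and K1359 was again the array inside it. Its difference was -1.27 ± 0.82 (SE, limma adjusted p = 0.459).
Hoxa10 went the other way, with 4.62, 5.84, 3.77 and 3.69 in GMP-Dot on the same arrays, against 3.53, 2.85, 4.13, 2.91 and 3.44 in GMP-Control. The close pair K1190 and K1272 lay above every GMP-Control array, and the other two lay inside their range. Of these 9 arrays, 8 lay below their array's median, and the dimmer Hoxa10 probe set differed by -0.17, with the opposite sign. The brighter one differed by 1.11 ± 0.54 (SE, limma adjusted p = 0.362), or by 0.86 with that pair averaged as 1 array (adjusted p = 0.684), an alternative chosen after seeing the data.
Hoxa3 lay at 6.89, 7.09, 8.43 and 3.86 in GMP-Dot, against 8.10, 8.59, 8.07, 5.005 and 7.16 in GMP-Control. Its groups overlapped on 3 of 4 arrays, and the difference of -0.82 ± 1.204 (SE, adjusted p = 0.727) turned to 0.086 without GMP-Dot K1421.
Hoxa7 had 6.54, 6.43, 7.33 and 7.35 in GMP-Dot, against 7.17, 7.39, 7.99, 7.53 and 7.44 in GMP-Control, with K1190 and K1272 below every GMP-Control array, and differed by -0.59 ± 0.36 (SE, adjusted p = 0.436). The upper quartile of all probe sets split the GMP-Dot arrays likewise, at 6.71 and 6.77 on K1190 and K1272. It was 6.27 and 6.31 on K1359 and K1421, and 6.19 to 6.57 in GMP-Control. The cause of this split was not tested. Hoxa4 rested on 1 array: GMP-Control K1581 had 8.78, while the other GMP-Control arrays had 3.25 to 4.67 and the GMP-Dot arrays 3.25 to 4.34, and its difference was -1.15 ± 0.74, or -0.19 without that array. Hoxa5, Hoxa2 and Hoxa11 differed by -0.15 ± 0.55, -0.33 ± 0.28 and -0.046 ± 0.20.
Marker levels moved between these groups too. The late neutrophil markers averaged 6.45 to 7.25 on GMP-Dot arrays against 7.32 to 7.85 on GMP-Control arrays, and the 8 B cell markers 4.65 to 5.16 in GMP-Dot against 5.37 to 5.97 in GMP-Control. The LSK markers averaged 5.97 to 6.17 in GMP-Dot against 5.10 to 5.92 in GMP-Control. Averages were lower in GMP-Dot for 8 of 10 late neutrophil, 8 of 8 B cell and 2 of 8 LSK markers. They were also lower for 7 of 7 T and NK cell and 7 of 8 GMP markers, beside 65.7% of all genes. The part of these marker levels in the Hoxa values was not tested.

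The effect of the deletion in GMP minus that in LSK was estimated in the same fit. No member passed it (0 of 8 by limma's adjusted p, against 0.033% of all genes), and 1 of 8 had an unadjusted p under 0.05, against 13.6% of all genes. That 1 was Hoxa10, with a difference of 2.19 ± 0.71 (SE, unadjusted p = 0.00580, adjusted p = 0.252), the lower mean in LSK-Dot and the higher mean in GMP-Dot adding up. At its dimmer probe set the difference was -0.017. Hoxa9 differed by 1.63 ± 1.09 and Hoxa3 by 2.03 ± 1.59 (SE, adjusted p = 0.452 and 0.502), so that a weaker effect in GMP was not shown for either.

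**Figure D3:**
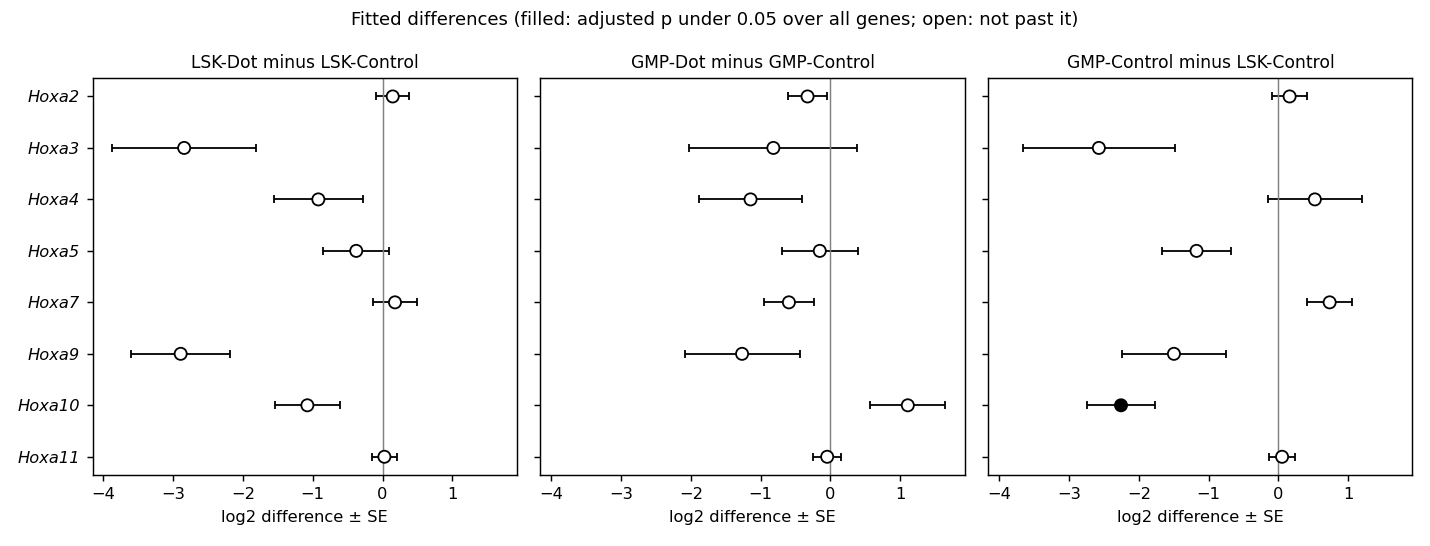
Fitted log2 differences with their SE (horizontal axis) for the 8 genes, for LSK-Dot minus LSK-Control, GMP-Dot minus GMP-Control and GMP-Control minus LSK-Control. A filled point marks an adjusted p under 0.05 over all genes, reached by Hoxa10 between the control cell types alone, at -2.26.

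Between the control cell types, Hoxa10, Hoxa3 and Hoxa9 were lower in GMP-Control with no overlap of the groups, and Hoxa7 was higher with no overlap. Hoxa10 was the 1 member of 8 that passed limma's adjusted p of 0.05, against 12% of all genes (4.95% lower). A difference under 0 was found for 4 of 8, against 34.2% of all genes. Groups without overlap were found for 3 of 8 members lower, against 3.43% of all genes, and 1 of 8 higher, against 11.3%. The members' median was -0.56, beside 0.29 for all genes. The comparison uses the same control arrays as the deletion comparisons above.
Hoxa10 had 3.53, 2.85, 4.13, 2.91 and 3.44 in GMP-Control, against a lowest, median and highest of 4.43, 5.66 and 6.54 in LSK-Control. It fell in GMP-Control by 2.26 ± 0.48 on the log2 scale (SE, limma adjusted p = 0.00636). All 5 GMP-Control arrays lay below their array's median, where a probe set carries little signal, so the size of this difference depends on the background. The call rests on its brighter probe set, since the dimmer one, below its array's median on all 21 arrays, differed by 0.09.
Hoxa3 lay at 5.005 to 8.59 in GMP-Control against 9.03 to 10.99 in LSK-Control, a difference of -2.57 ± 1.09 (SE, adjusted p = 0.110). Hoxa9 lay at 7.65 to 9.37 in GMP-Control against 9.37 to 10.48 in LSK-Control, with the 2 ranges all but touching, and differed by -1.50 ± 0.74 (SE, adjusted p = 0.160), or by -0.53 with each array's upper quartile as a covariate (adjusted p = 0.798). Hoxa7 lay at 7.17 to 7.99 in GMP-Control against 6.56 to 7.05 in LSK-Control, and differed by 0.74 ± 0.33 (SE, adjusted p = 0.123). Its sign turned, at -0.032, when each array's upper quartile was a covariate. That quartile itself did not overlap between these groups, at 6.19 to 6.57 in GMP-Control and 6.60 to 6.76 in LSK-Control.
Without LSK-Dot K1272, an array outside this comparison that enters the shared estimate of spread, 3 of 8 members passed, Hoxa7 and Hoxa9 joining Hoxa10 with adjusted p of 0.0122 and 0.0374. In a fit of the control groups alone Hoxa3 passed as well (adjusted p = 0.0128). Hoxa5 differed by -1.17 ± 0.49 (SE, adjusted p = 0.109), with 3 of 5 GMP-Control arrays below the LSK-Control range, and Hoxa4, Hoxa2 and Hoxa11 had groups that overlapped.

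Over the 4 groups, Hoxa9 averaged 10.06 ± 0.43 in LSK-Control, 8.57 ± 0.73 in GMP-Control, 7.30 ± 0.83 in GMP-Dot and 7.17 ± 2.21 in LSK-Dot (SD), from highest to lowest. LSK-Control and GMP-Control did not overlap, while each later neighbour in that order overlapped with the one before it. Hoxa3 kept another order, with 9.96 ± 0.63 in LSK-Control, 7.39 ± 1.43 in GMP-Control, 7.12 ± 2.92 in LSK-Dot and 6.57 ± 1.93 in GMP-Dot, and only its first neighbours were apart. For Hoxa10 the order was 5.63 ± 0.74 in LSK-Control, 4.55 ± 1.02 in LSK-Dot, 4.48 ± 1.001 in GMP-Dot and 3.37 ± 0.52 in GMP-Control, and all neighbours overlapped. Hoxa7 had its highest mean in GMP-Control, at 7.51 ± 0.30, as did Hoxa2, Hoxa4 and Hoxa11, followed for Hoxa7 by 6.95 ± 0.87 in LSK-Dot, 6.91 ± 0.50 in GMP-Dot and 6.77 ± 0.18 in LSK-Control.

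Other probe sets of the same genes were measured on the same RNA and so do not add replicates, but they show how far the values rest on 1 probe set. The dimmer Hoxa9 probe set, 1421579_at, lay above its array's median on all 21 arrays. It had 4.86, 6.27 and 7.52 as lowest, median and highest values in LSK-Dot, against 6.63, 8.08 and 8.37 in LSK-Control, where the 6.63 of K1604 stood below the rest at 7.95 or above. Its LSK difference was -1.72 ± 0.41 (SE, adjusted p = 0.268 over all probe sets).
A Hoxa3 probe set, 1427433_s_at, was the 1 member probe set whose LSK groups did not overlap, with 4.54 to 6.07 in LSK-Dot against 6.18 to 7.97 in LSK-Control, which was met in this direction by 0.111% of all probe sets. It differed by -1.50 ± 0.32 (SE, adjusted p = 0.153). K1359 was again the highest LSK-Dot array at both. In the fit over all probe sets, 3 of 15 member probe sets passed between the control cell types, against 9.59% of all probe sets, and all 3 were lower in GMP-Control. They were those of Hoxa3 and Hoxa9 just named, at -1.73 ± 0.34 and -1.94 ± 0.43 (SE, adjusted p = 0.00427 and 0.00937), and the brighter one of Hoxa10.
The remaining 2 probe sets of Hoxa3 and the dimmer ones of Hoxa4, Hoxa5 and Hoxa10 differed by -0.15 to 0.21 in LSK, with adjusted p of at least 0.990. The dimmer probe sets of Hoxa4 and Hoxa5 had the opposite sign to the brighter ones in LSK, at 0.21 ± 0.32 and 0.14 ± 0.35, and that of Hoxa10 kept its sign at -0.15 ± 0.21 (SE).

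**Figure D4:**
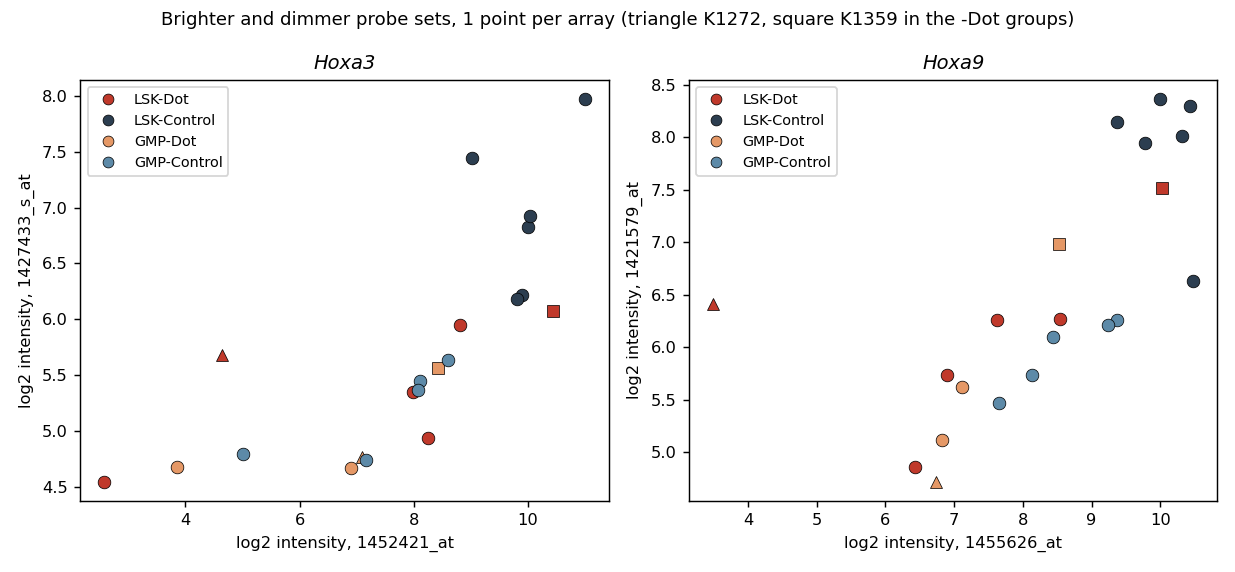
The dimmer (vertical axis) against the brighter (horizontal axis) probe set of Hoxa3 and of Hoxa9, in log2 intensity with 1 point per array, coloured by group. LSK-Control arrays lie toward the upper right for both genes, except K1604 at 6.63 on the dimmer Hoxa9 probe set. LSK-Dot K1359 (square) lies near them, at 7.52 on that probe set. LSK-Dot K1272 (triangle) has a low value of 3.49 at the brighter Hoxa9 probe set without the lowest value at the dimmer one.

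Among themselves, the members did not follow 1 pattern over the 21 arrays, which share their normalization. Hoxa3 and Hoxa9 had a Pearson r of 0.76, and of 0.63 once group means were removed. Hoxa5 correlated with Hoxa9 at 0.51, while Hoxa9 and its neighbour Hoxa10 had an r of 0.31, and of 0.12 within groups. Hoxa2 and Hoxa7 correlated at 0.78 and both ran against Hoxa9, at -0.42 for each, with K1272 high for Hoxa2 and Hoxa7 and low for Hoxa9.
The genes most like Hoxa9 over these arrays were Cd27 (r = 0.873), a receptor found on early progenitors and lymphocytes, Phf21a (0.846), a chromatin reader, Actb (0.837), Smad1 (0.823) and Skap2 (0.821). Skap2 is a gene that borders the cluster. The nearest to Hoxa10 were Rora (0.903), Bgn (0.867) and Vldlr (0.821). Those nearest to Hoxa3 were Slc25a51, Actb and Pcp4l1, at 0.782 to 0.794, and those nearest to Hoxa5 were Trbv13-2, Zfp467 and Nfkbie, at 0.808 to 0.845. Hoxa7 was most like Foxe3, Mzf1 and Fam222a, at 0.968 to 0.971, and Hoxa2 most like Grp, Adam6a and Mtag2, at 0.927 to 0.940. For Hoxa4 they were Dsg2, Bmf and Crp, and for Hoxa11 Krt32, Npffr2 and F5, at 0.811 to 0.884. LSK-Dot K1272 stood far above its group for Hoxa2 and Hoxa7, at 4.19 and 8.66, and GMP-Control K1581 for Hoxa4, at 8.78. Hoxa2 and Hoxa11 lay below their array's median on all 21 arrays. How far these correlations rest on single arrays or on background was not tested.

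The cofactors that bind DNA with HOX proteins were described for 8 measured genes. In LSK, 4 of 8 averaged lower in LSK-Dot, beside 41.6% of all genes, and 0 passed limma's adjusted p. At an unadjusted p under 0.05, 1 of 8 was lower and 0 higher, beside 2.48% and 3.13% of all genes. Meis1, the cofactor that works with Hoxa9 in leukaemia, differed by -1.59 ± 0.66 (SE, limma adjusted p = 0.792) and Pbx3, another partner of HOXA9, by -0.39 ± 0.48. Between control cell types 1 of 8 passed, beside 12% of all genes, and it was Meis1, lower in GMP-Control at -2.97 ± 0.70 (adjusted p = 0.0110). In GMP 0 of 8 passed, and Meis1 differed by -0.07 ± 0.77.
Genes reported as targets of HOXA9 or MEIS1, mostly from leukaemia cells, were measured for 14 of 14, and 1 of them, Flt3, is also among the LSK markers. In LSK, 13 of 14 averaged lower in LSK-Dot, beside 41.6% of all genes, with a median of -0.73. At an unadjusted p under 0.05, 2 of 14 were lower, beside 2.48% of all genes, and 0 passed limma's adjusted p. Flt3, a growth factor receptor of early progenitors, differed by -2.53 ± 0.57 (adjusted p = 0.193) and Lmo2, a stem cell transcription factor, by -0.93 ± 0.39 (adjusted p = 0.792). In GMP, 5 of 14 averaged lower in GMP-Dot, beside 65.7% of all genes, and 0 passed. Their median was 0.24, beside -0.20 for all genes. Between control cell types 13 of 14 averaged lower in GMP-Control and 6 passed, all lower, beside 34.2% of all genes under 0 and 4.95% called lower, with Flt3 at -5.07 ± 0.60, Camk2d at -2.76 ± 0.46 and Erg at -2.34 ± 0.55.
Regulators of the cluster were measured as well. Of 15 members of the MLL and DOT1L complexes, 11 averaged lower in LSK-Dot, beside 41.6% of all genes, and 0 passed, adjusted or not. Kmt2a differed by -0.52 ± 0.40 and Men1, its partner menin, by -0.01 ± 0.43. In GMP 6 of 15 averaged lower in GMP-Dot, beside 65.7% of all genes. An unadjusted p under 0.05 was reached by 2 of 15, beside 13.9% of all genes, and 0 passed limma's adjusted p. Between control cell types 2 of 15 were lower in GMP-Control, Mllt3 at -3.44 ± 0.80 and Aff3 at -2.28 ± 0.56, and 1 was higher, Mllt1 at 1.31 ± 0.37, a count of 3 of 15 beside 12% of all genes. Of 15 Polycomb subunits measured, which keep Hox genes silent, 0 passed limma's adjusted p in LSK and 0 in GMP. At an unadjusted p under 0.05, 1 was lower in LSK-Dot, beside 2.48% of all genes. In GMP 6 had an unadjusted p under 0.05, beside 13.9% of all genes. In GMP-Control against LSK-Control, 3 of 15 were lower and 1 higher, beside 12% of all genes called.
In the other Hox clusters, 3 of 9 Hoxb, 4 of 7 Hoxc and 0 of 8 Hoxd genes averaged lower in LSK-Dot, beside 41.6% of all genes. Their medians were 0.04, -0.03 and 0.18, beside 0.06 for all genes, and 0 passed. Hoxb4, a gene that expands stem cells when overexpressed, differed by -0.78 ± 0.36 (adjusted p = 0.881). Between control cell types, 2 of 8 Hoxd genes were higher in GMP-Control, beside 12% of all genes called in either direction, Hoxd10 at 0.63 ± 0.18 and Hoxd12 at 1.49 ± 0.41 (SE, adjusted p = 0.0272 and 0.0255). Hoxd10 reached at most 3.66 in GMP-Control, below the lowest array median of 4.65, where a probe set carries little signal. Among 10 genes flanking the Hoxa cluster 0 passed in LSK, with Snx10 at -2.07 ± 0.81 and Skap2 at -0.97 ± 0.50 (SE, adjusted p = 0.756 and 0.934). In GMP 0 of 10 passed, and Tax1bp1, an autophagy adaptor, differed by 2.33 ± 0.61 (adjusted p = 0.143). It was the 1 of 10 whose groups did not overlap, beside 4.78% of all genes. For the control cell types 2 of 10 passed, beside 12% of all genes, both lower in GMP-Control, Snx10 at -3.02 ± 0.85 and Tax1bp1 at -2.36 ± 0.55 (SE, adjusted p = 0.0279 and 0.0105).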

How the data were processed

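RNA of sorted cells was labelled as biotinylated cRNA and hybridised to Affymetrix arrays (source: the labels' protocols). The authors' deposited table holds intensity values of 45101 probe sets on 21 arrays, on a linear scale, and per the submitters' processing notes it was made by RMA, whose version is not stated there. Neither scan batches nor a genome build were stated in those sources. Log2 was taken of each value, with no pseudocount or further normalization. Probe sets with 1 gene symbol (34958) gave 18194 genes, each by its brightest probe set over all arrays. Limma 3.58.1 (R 4.3.3) fitted 4 group means over all 21 arrays, with Benjamini-Hochberg adjustment over all genes and a threshold of 0.05, and was tested on simulated data. Precision is limited by how many arrays there are. The members and lists were chosen with earlier results of these data known. Genes outside the members were named as up to 3 of smallest p in each list, with Meis1, Pbx3, Dot1l, Kmt2a and Men1, and as the 3 genes (5 for Hoxa9) of highest Pearson correlation with a member. Groups came from the sample titles, whose K numbers were not used to pair arrays in the main fit. Of 9 numbers shared by LSK and GMP, 1 had a correlation of deviations over 0.1. That does not decide whether same-numbered arrays came from the same animal, as different cell types need not deviate together.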

Additional observations from a re-analysis of the deposited data

Results flagged for a closer look

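Values were examined for each of the 15 probe sets in the 4 groups, and in 11 of 60 cases 1 array stood apart from the rest of its group by Dixon's criterion, where chance gives about 1 in 20. LSK-Dot K1272 gave 5 of the 11, each the highest of its group: Hoxa2 at 4.19, Hoxa7 at 8.66, the Hoxa3 probe set 1429398_at at 4.67, the Hoxa4 probe set 1420226_x_at at 3.26 and the Hoxa10 probe set 1446408_at at 3.47. The other LSK-Dot arrays had Hoxa7 at 6.22 to 6.82. GMP-Control K1581 had Hoxa4 at 8.78, where the others of its group had 3.25 to 4.67. GMP-Dot K1359 had the Hoxa3 probe set 1427433_s_at at 5.56, above 4.66 to 4.76 in its group. LSK-Control K1604 had the Hoxa9 probe set 1421579_at at 6.63, below 7.95 to 8.37. The Hoxa3 probe set 1429398_at was highest in LSK-Control K1602 at 4.19 and in GMP-Control K1603 at 5.19, and Hoxa11 in LSK-Control K1581 at 3.85.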

How the results depend on the processing

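Leaving out each array in turn gave 0 to 1 members called in LSK (1, Hoxa9, without LSK-Dot K1359), 0 in GMP and for the difference of effects, and 1 to 3 between control cell types (3 without LSK-Dot K1272). Array weights gave 2, 2, 1 and 3 members called in LSK, GMP, their difference and between control cell types, but their estimate stopped before it converged, with a weight of 0.00801 for GMP-Dot K1190. Weights estimated gene by gene, chosen after seeing the data, gave 1, 4, 2 and 3, with 446 genes called in LSK and a weight of 8.89 for the same array. Between control cell types, 4 members passed in a fit of those groups alone, 0 with the upper quartile as a covariate (Hoxa10 at -2.17, adjusted p = 0.0594), 0 without the probe set classes that can match several transcripts (_s, _x and _a), and 0 among genes above the median, where Hoxa10 is not in the fit. The cause of these changes was not tested. The adjusted p of Hoxa10 there ran from 0.00110 to 0.778 over 32 alternatives. Quantile normalization, a pseudocount of 16, all probe sets, and trended robust variances gave the same counts of members. The K number as a replicate block, fitted over the 18 arrays with a number shared by LSK and GMP and so for the difference of effects and the control cell types alone, gave the same counts of members there, with Hoxa10 at an adjusted p of 0.0492 between control cell types. All genes called there numbered 454, against 2180 over all 21 arrays without the block, and the parts of the block and of the 3 arrays left out were not told apart; 1 of 9 numbers had its best correlation with itself. Some signs turned, among them that of the called Hoxa10 difference. With quantile normalization Hoxa11 had -0.0098 in LSK, 0.13 in GMP, 0.14 for the difference and -0.19 between control cell types, where Hoxa2 had -0.090. Without the named probe set classes Hoxa5 had 0.14 in LSK and -0.24 for the difference, and Hoxa10 had -0.17 in GMP, -0.017 for the difference and 0.089 between control cell types. Array weights gave Hoxa2 -0.11, Hoxa7 -0.088 and Hoxa11 -0.061 in LSK, and Hoxa5 -0.25 for the difference; those estimated gene by gene gave Hoxa2 -0.11, Hoxa7 -0.095 and Hoxa11 -0.071 in LSK. With the upper quartile as a covariate Hoxa11 had -0.0067 in LSK, 0.10 in GMP, 0.11 for the difference and -0.23 between control cell types, Hoxa4 had 0.048 for the difference, and Hoxa2 and Hoxa7 had -0.33 and -0.032 between control cell types. With GMP-Dot K1190 and K1272 averaged, Hoxa5 and Hoxa11 had 0.010 and 0.038 in GMP and Hoxa11 0.011 for the difference. With single arrays left out, the ranges that crossed 0 were -0.11 to 0.21 (Hoxa2), -0.16 to 0.33 (Hoxa7) and -0.078 to 0.10 (Hoxa11) in LSK, -1.44 to 0.086 (Hoxa3), -0.37 to 0.10 (Hoxa5) and -0.14 to 0.043 (Hoxa11) in GMP, -0.65 to 0.73 (Hoxa4), -0.11 to 0.62 (Hoxa5) and -0.17 to 0.032 (Hoxa11) for the difference, and -0.43 to 0.95 (Hoxa4) between control cell types.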
